A study of Mus musculus with 28 samples.

Results

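The genes described here encode the proteins of the cytoplasmic ribosome. They were chosen by symbol: Rpl or Rps followed by a number, with the letter or paralog number that some of them carry, plus Rplp0, Rplp1, Rplp2 and Rpsa. Rows that carry the suffix -ps, which names processed gene copies, were left out. The rule found 82 of the 36806 genes of each table, 50 of the large and 32 of the small subunit. All 82 had a usable estimate in all 28 libraries. The libraries are RNA of mouse (FVB/Hsd) bone marrow-derived macrophages, grown for 7 days and infected with a retrovirus, with 1 library per condition. The hairpin sh1137 against Wdr82, whose protein belongs both to the SET1 complexes, which methylate histone H3, and to the PNUTS phosphatase complex, was set against the empty vector LMP in 3 sets. In the unstranded 4sU set cells were untreated or had 45 min, 2 h or 4 h of lipopolysaccharide (LPS, 10 ng/ml), in the stranded 4sU set they were untreated or had 1 h, and in the polyA set they were untreated or had 4 h. Another Wdr82 set, with a scrambled hairpin as control, received LPS for 45 min with or without DRB, which blocks RNA polymerase II from entering productive elongation. The hairpins against Set1a with Set1b and against Pnuts were set against the scrambled hairpin, each without LPS and with 45 min of it. The DRB, Set1a+Set1b and Pnuts sets are stranded 4sU RNA as well, but the name stranded set is kept below for the set with LMP. 4sU RNA is total RNA labelled with 4-thiouridine for 45 min before harvest, so it is enriched for new transcripts, while polyA RNA is mostly older message. The tables give FPKM, which divide the fragments of a gene by its transcript length and by the size of the library, and all log2 ratios below were taken within a table after adding 1 FPKM.

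A ribosome joins a small subunit, which reads the message, to a large subunit, which makes the peptide bond, and each contains ribosomal RNA and one copy of most of these proteins. The genes are among the most strongly transcribed in dividing cells, many host small nucleolar RNAs in their introns, and their messages are long-lived. Most of the messages begin with a C followed by a run of pyrimidines, the 5′ terminal oligopyrimidine tract through which mTOR signalling controls their translation. The genes also have many processed copies elsewhere in the genome, so short reads of a spliced ribosomal protein message often match several places.

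The start regions of the genes that the results turn on show how the tract is placed. Of the 82 genes, 61 had an entry among RefSeq promoters (build GRCm38.p6), a window of 300 bases around the annotated start. Read from the annotated start, the first bases were C and at least 4 further C or T bases in 13 of 61 genes (21.3%), against 3.01% of all 27025 genes in the table. These counts include runs that began before the start and span it, as in Rps6 and Rps21 below. Such a stretch was found within 10 bases of the start, on either side, in 39 of 61 (63.9%), against 34.4% of all genes. The sequence CCGGAAG, on either strand anywhere in the window, was present in 24 of 61 (39.3%) and in 9.93% of all genes. The windows printed here run from 45 bases before the annotated start through the first 15 bases of the transcript, on the gene's own strand, and capitals mark runs of at least 5 C or T bases. The first 3 are from genes called lower with the Wdr82 hairpin whose run of pyrimidines spans the start or lies beside it. Rps21 also has a second annotated start, not printed here, without such a stretch beginning within 10 bases. The next 3 are from genes called lower in the same fit. In these, no C with at least 4 further C or T bases began within 10 bases of the start. Rpsa has a run that begins with T within 10 bases after the start, and in Rpl4 a longer run ends shortly before it. The last 4 are from Rpl12, Rps2 and Rpl10a, which were among the genes furthest below 0 with the hairpin and with DRB.
Rps6, chr4:86857353-86857412, minus strand: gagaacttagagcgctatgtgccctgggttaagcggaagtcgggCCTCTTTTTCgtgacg
Rps21, chr2:180257334-180257393, plus strand: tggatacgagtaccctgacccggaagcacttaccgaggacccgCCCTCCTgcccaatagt
Rpl18, chr7:45718026-45718085, plus strand: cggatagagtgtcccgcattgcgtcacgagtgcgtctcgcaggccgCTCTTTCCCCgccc
Rplp0, chr5:115559422-115559481, plus strand: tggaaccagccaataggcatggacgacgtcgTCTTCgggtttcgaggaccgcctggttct
Rpl4, chr9:64173342-64173401, plus strand: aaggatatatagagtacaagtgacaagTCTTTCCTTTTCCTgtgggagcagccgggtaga
Rpsa, chr9:120127721-120127780, plus strand: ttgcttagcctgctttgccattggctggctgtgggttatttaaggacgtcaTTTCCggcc
Rpl12, chr2:32961667-32961726, plus strand: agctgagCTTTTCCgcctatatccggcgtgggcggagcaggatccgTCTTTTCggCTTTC
Rps2, chr17:24720018-24720077, plus strand: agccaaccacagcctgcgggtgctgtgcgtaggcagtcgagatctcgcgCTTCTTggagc
Rpl10a, first start, chr17:28328426-28328485, plus strand: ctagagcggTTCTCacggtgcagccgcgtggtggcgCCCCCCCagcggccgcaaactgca
Rpl10a, second start, chr17:28328520-28328579, plus strand: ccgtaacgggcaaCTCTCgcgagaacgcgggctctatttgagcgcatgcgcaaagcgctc
These matches describe the letters at the annotated starts, which need not be the starts used in these cells.

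Levels differed widely among the genes although their proteins are needed in equal amounts. In polyA RNA the median gene had 18.9 FPKM, the middle 50% lay between 4.18 and 87.5, and 18 genes reached 100 FPKM. Rpl8, a protein near the peptidyl transferase centre, was highest with 481 to 716 FPKM in the 4 polyA libraries. Rps9 (294 to 600) of the small subunit, and Rpl32 (253 to 476) and Rpl4 (252 to 416) of the large subunit, were also among the highest, and the range of each overlapped that of the gene named before it. In 4sU RNA the median gene was at 25.01 to 40.2 FPKM depending on the set, and Rpl8 was again highest in each set except the stranded Wdr82 set, where Rplp1 had a median of 935 FPKM. The 2 kinds of RNA and the 6 tables were scaled separately, so a level in one is not comparable with a level in another, but the order of the genes was alike. Its rank correlation between tables was 0.79 to 0.98 over the 82 genes, which share a transcript annotation and its shared-read ambiguities.

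Among the minor paralogs, Rpl10l was listed at 0 in all 28 libraries, and Rpl3l, the muscle form of Rpl3, did not exceed 0.407 FPKM. Rpl39l, a testis form, reached 1.497 FPKM in 1 library, the empty vector at 4 h, and was at 0.773 or lower in the others. Rpl22l1 lay between 0 and 8.14 FPKM, below its major copy Rpl22 (98.6 to 657) in every library. Rpl7l1 (14.7 to 48.1) and Rps27l (33.2 to 91.4), the latter a p53 target, were expressed throughout. Rps27 itself did not exceed 1.06 FPKM and Rpl3, the major copy, lay between 0 and 2.87 FPKM. In polyA RNA the -ps rows named after Rpl3 together had a median of 192.5 FPKM, against 0.348 for Rpl3 itself.

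Rows named after processed copies had high values. The tables hold 156 rows named after 52 of the genes with the suffix -ps, and in polyA RNA 26 of these 52 genes had less FPKM than their -ps rows together. Rpl10a had a median of 8.39 FPKM in polyA RNA while Rpl10a-ps1 had 390. Rplp2 had 76.9 and Rplp2-ps1 742, Rps24 had 45.2 and Rps24-ps3 572, and Rpl38 had 19.1 and Rpl38-ps2 466. In the 4sU sets 17 to 23 of the 52 genes were below their copies. Short reads of near-identical sequences cannot always be assigned, so single values of genes with such copies are uncertain. How far this moved any value was not tested. Some genes with 0 -ps rows were low as well, such as Rps7 at 2.28 and Rps23 at 2.56 FPKM in polyA RNA. Copies listed under other names were not searched for, so such genes need not be free of them. Each comparison was also computed with every gene summed with its -ps rows, an alternative chosen after seeing the data, and where that changes a call it is stated beside it. Fewer cells and less RNA per cell cannot be told apart in these bulk samples.

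**Figure D1:**
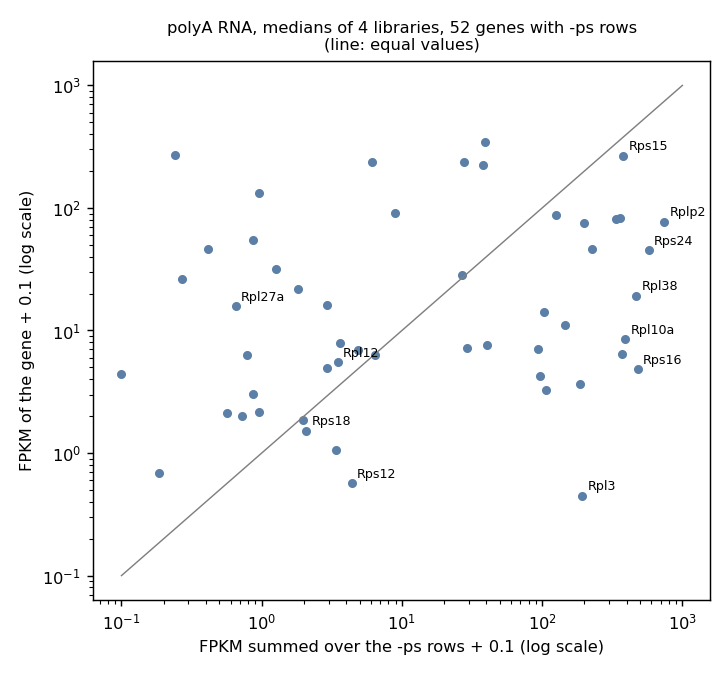
FPKM of each of the 52 genes that have -ps rows (vertical axis) against the summed FPKM of those rows (horizontal axis), both as medians of the 4 polyA libraries plus 0.1 on log scales. Points below the line of equal values, such as Rpl10a, Rplp2, Rps24 and Rpl38, are genes listed lower than their copies (26 of 52).

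Macrophage markers (9 or 10 of 10 genes at 1 FPKM or more in each library) summed to 2237 to 12959 FPKM. Neutrophil markers summed to 5.65 to 87.1, dendritic cell markers to 26.5 to 357 and erythroid markers to 0 to 5.25 FPKM. In the unstranded set neutrophil markers summed to 27.2 to 62.9 FPKM in control and 36.2 to 87.1 in hairpin libraries, and dendritic cell markers to 26.5 to 83.0 and 42.9 to 151. Macrophage markers were lower with the hairpin in each of the 4 unstranded pairs, at 2899 and 2558 FPKM in untreated cells, 4909 and 3599 at 45 min, 4640 and 3405 at 2 h, and 6186 and 4427 at 4 h. T lymphocyte markers were higher in each, from 0.509 to 2.62 FPKM in the control and from 3.17 to 17.1 with the hairpin, with Cd3e and Cd3g under 0.1 FPKM in all 8 libraries. B lymphocyte markers summed to at most 10.8 FPKM in the control and 17.8 with the hairpin, with Cd79a under 0.1 in all 8. Macrophage markers were lower with the hairpin in the stranded and DRB sets too. They were higher in the Set1a+Set1b and Pnuts pairs, at 3952 and 7721 FPKM in untreated cells of the Pnuts set. In polyA RNA they were at 4523 in the control and 2237 with the hairpin untreated, and 9697 and 12959 at 4 h. B lymphocyte markers there summed to 115 and 39.0 FPKM in untreated cells. The part of these markers in the results was not tested. Wdr82 itself was lower in all 10 hairpin pairs, by log2 -0.72 to -2.23. Ppp1r10, the gene of PNUTS, went against the label: untreated cells had 89.5 FPKM in the control and 144 in the library labelled Pnuts sh. In the Set1a+Set1b set the targets were little changed in untreated cells, with Setd1a at 16.1 FPKM in the control and 14.8 in the hairpin library, and Setd1b at 11.3 and 11.8, against its label. With LPS Setd1a had 18.1 and 13.5 FPKM and Setd1b 10.5 and 6.70. Relative depth, read from the lowest values, differed 1.60-fold to 3.34-fold within a set. In the stranded Wdr82 set the hairpin libraries were shallower, at 0.742 and 0.547 of the first control library against 1.00 and 0.914 for the controls.

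With the Wdr82 hairpin, the ribosomal protein genes as a group lay below the control by a small step in unstranded 4sU RNA. The median log2 ratio of the genes was -0.31 without LPS, -0.38 with 45 min of it, -0.29 with 2 h and -0.25 with 4 h, while the median of all genes tested lay between -0.01 and 0.03. Of 75 genes tested in untreated cells, 16 were at least 1.5-fold lower and 1 higher, against 8.22% of all genes lower and 11.7% higher. At 45 min it was 20 lower and 2 higher of 78 (10.7% and 17.9% of all genes), at 2 h 12 and 3 of 78 (10.7% and 14.7%), and at 4 h 9 and 2 of 74 (10.6% and 14.4%).

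Across the 4 times, a limma fit with hairpin and LPS time as terms called 14 of 79 genes lower and 0 higher (Benjamini-Hochberg adjusted p under 0.05 over all genes, of which 5.66% were lower and 5.28% higher). Its error is the departure of the 4 ratios from each other, not the spread between cultures. The genes were Rpl4, Rpl7, Rpl8, Rpl10, Rpl10a, Rpl18, Rpl23, Rpl30, Rplp0, Rplp1, Rps6, Rps21, Rps27a and Rpsa. The call rests on all 4 pairs: without the untreated, the 45 min or the 2 h pair it was 0 genes each time, and without the 4 h pair 3. It was 1 without the filter on low values and 3 without limma's trend. Summed with the -ps rows, 18 genes were lower, and Rpl30 turned to log2 0.12.

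The stalk proteins recruit the translation factors to the ribosome. Rplp0, their anchor, had 111, 140, 131 and 109 FPKM in the control in the order untreated, 45 min, 2 h and 4 h, and 73.3, 108, 92.1 and 68.7 with the hairpin. Each hairpin library was below its control, and the highest hairpin value was just under the lowest control value (log2 -0.53, SE 0.07, limma adjusted p 0.0208). Rplp1 had 138, 195, 200 and 172 FPKM in the control and 113, 128, 131 and 138 with the hairpin, again just without overlap (log2 -0.45, SE 0.08, limma adjusted p 0.0369). Rplp2 was lower in each pair too, but its limma adjusted p was 0.0513 (log2 -0.27, SE 0.06). Rpsa, the laminin receptor protein on the head of the small subunit, had 26.2, 35.8, 27.8 and 21.0 FPKM in the control and 20.0, 24.3, 22.1 and 15.4 with the hairpin (log2 -0.41, SE 0.07, limma adjusted p 0.0319).

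In the small subunit, Rps6, the substrate of S6 kinase, had 10.6, 13.3, 12.2 and 12.0 FPKM in the control and 6.60, 9.80, 9.36 and 6.25 with the hairpin. All 4 hairpin values lay below all 4 control values (log2 -0.55, SE 0.11, limma adjusted p 0.0448). Rps27a, whose product is a fusion of ubiquitin with protein S27a, was lower at each time, with 32.2, 83.3, 50.4 and 44.6 FPKM in the control and 20.9, 63.0, 36.6 and 32.8 with the hairpin (log2 -0.47, SE 0.06, limma adjusted p 0.0227). Rps19, which is mutated in Diamond-Blackfan anaemia, had 65.8, 56.2, 66.8 and 43.9 FPKM in the control and 46.1, 52.8, 40.9 and 41.3 with the hairpin, and was not called.

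In the large subunit, Rpl10a, a protein of the mobile L1 stalk, lay furthest below 0 among the called genes. It had 92.5, 71.9, 61.2 and 30.6 FPKM in the control and 57.4, 35.2, 37.5 and 25.6 with the hairpin (log2 -0.66, SE 0.13, limma adjusted p 0.0452, and -0.49 summed with its -ps rows). Rpl12, at the base of the stalk, had 57.3, 55.6, 43.0 and 20.9 FPKM in the control and 35.5, 28.7, 23.9 and 18.7 with the hairpin. Its log2 change of -0.64 (SE 0.15) did not pass, with a limma adjusted p of 0.056. Rpl5 and Rpl11, which carry the 5S ribosomal RNA and bind Mdm2, were not called. Rpl5 had 77.0, 89.8, 93.4 and 79.2 FPKM in the control and 59.9, 67.6, 82.3 and 80.4 with the hairpin, and Rpl11 33.3, 41.3, 35.6 and 40.0 against 21.4, 30.0, 31.6 and 29.0. Rpl13a, also known from the GAIT complex of interferon-treated myeloid cells, had 90.7, 85.7, 92.1 and 75.3 FPKM against 63.7, 77.9, 86.2 and 71.6.

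**Figure D2:**
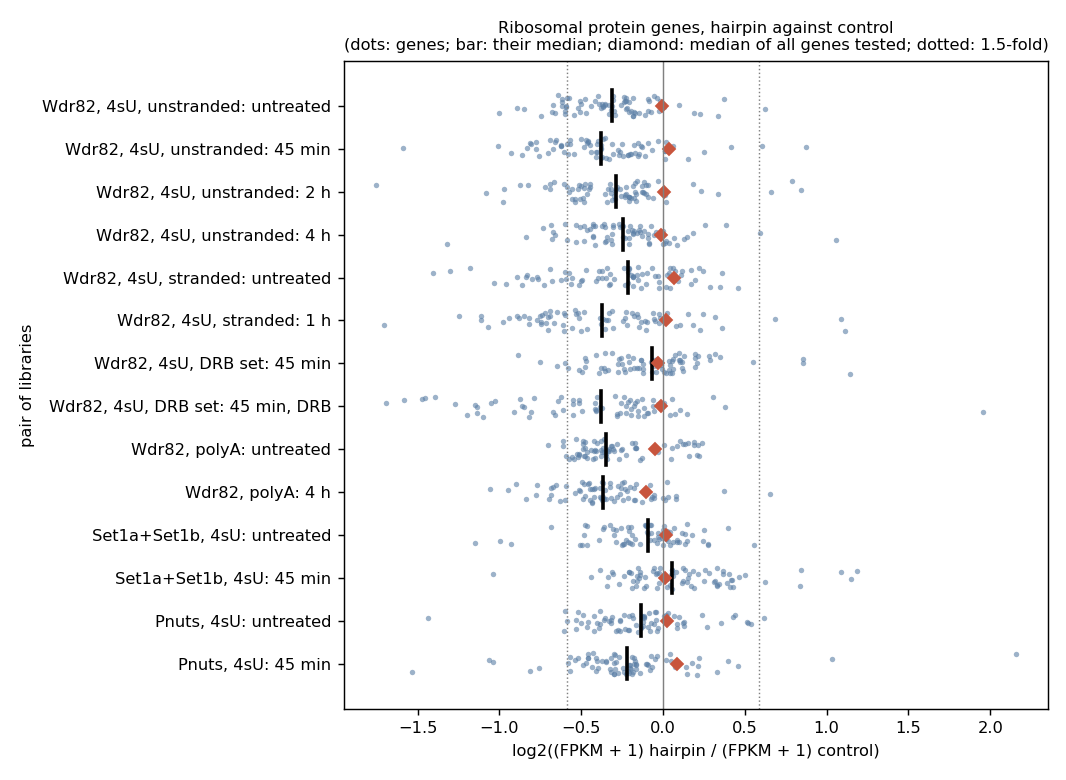
Log2 ratio of hairpin to control, after adding 1 FPKM, for each ribosomal protein gene (dots) in each of the 14 pairs of libraries, with their median (bar), the median of all genes tested (diamond) and the 1.5-fold limits (dotted). The bar lies below the diamond in 13 of the 14 pairs, all except the Set1a+Set1b pair at 45 min of LPS, and the step is smallest, -0.07 against -0.03, in the Wdr82 pair with a scrambled control and no DRB.

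The stranded 4sU set had the widest spread. The median gene was at log2 -0.21 in untreated cells and -0.37 after 1 h of LPS, against 0.07 and 0.02 for all genes. In untreated cells 18 of 79 genes were 1.5-fold lower and 0 higher (9.97% and 16.3% of all genes), and after 1 h 29 of 78 were lower and 3 higher (12.8% and 16.7%). Rpl12 had 140 and 108 FPKM in the control, untreated and at 1 h, and 56.5 and 45.2 with the hairpin (log2 -1.27, SE 0.12, limma adjusted p 0.0314). Rps2, which lines the entry channel for messenger RNA, had 28.4 and 18.0 FPKM in the control and 10.1 and 7.81 with the hairpin (log2 -1.26, SE 0.15, limma adjusted p 0.0403). For both genes the hairpin libraries were below both controls, and both stayed called when summed with their -ps rows. They were the only 2 of 79 genes called in this fit, in which 1.07% of all genes were called lower and 2.46% higher, and neither was called without the filter on low values or without limma's trend. Rpl10a (99.7 and 66.8 FPKM in the control, 43.5 and 38.7 with the hairpin) and Rpl10 (120 and 85.1, 70.5 and 39.9) were as separate but had limma adjusted p of 0.057 and 0.054. Rpl22 had the opposite order, with 363 and 528 FPKM in the control and 466 and 657 with the hairpin. Rps15 had 114 FPKM in the control and 242 with the hairpin at 1 h.

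In polyA RNA the group was lower by a similar step. Its median log2 ratio was -0.35 in untreated cells and -0.37 after 4 h of LPS, against -0.05 and -0.10 for all genes. In untreated cells 60 of 75 genes lay below 0, but 4 were 1.5-fold lower and 0 higher (9.08% and 8.17% of all genes). After 4 h, 14 were lower and 1 higher (10.8% and 8.53%). The limma fit called 0 of 75 genes, as it called 0 of all 12899 genes, while 33 of the 75 were lower at an unadjusted p under 0.05 and 0 higher (1493 and 889 of all 12899 genes). Rps9 had 478 and 600 FPKM in the control, untreated and at 4 h, and 294 and 350 with the hairpin, so both hairpin libraries lay below both controls. Rplp0 had 274 and 295 FPKM against 198 and 165, and Rpl13a 274 and 283 against 181 and 200, again without overlap. The rows of the genes furthest below 0 in 4sU RNA showed no such step here, at low levels where adding 1 FPKM shrinks ratios. Rpl10a had 10.8 and 6.02 FPKM in the control and 12.4 and 5.41 with the hairpin. Rpl12 had 6.75 and 4.13 against 6.77 and 3.53, and Rps2 5.51 and 4.13 against 6.24 and 3.36. Rpl10a-ps1, listed far higher than Rpl10a, was lower with the hairpin, with 431 and 502 FPKM in the control against 294 and 348.

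Against a scrambled hairpin the 2 pairs differed, and the difference was not tested. At 45 min of LPS without DRB, the median gene was at log2 -0.07 with all genes at -0.03, and 4 of 77 genes were 1.5-fold lower and 3 higher (6.36% and 9.40% of all genes). Rpl12 was again lowest, with 41.8 FPKM in the control and 22.2 with the hairpin. With DRB the median was -0.38 with all genes at -0.01, and 25 of 74 genes were 1.5-fold lower and 1 higher (13.7% and 11.4%). The limma fit of the hairpin over both states called 0 of 77 genes (0.0356% of all genes were lower and 0.0854% higher), with 18 lower at an unadjusted p under 0.05 and 0 higher (875 and 853 of all 14045 genes). The kind of control and the set cannot be told apart here, since the 3 other Wdr82 sets had the empty vector.

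Of the 73 genes tested in every Wdr82 pair, 21 (28.8%) lay below 0 in all 10 pairs and 0 lay above 0 in all 10, while 4.85% of all 10328 genes so tested lay below 0 in all 10. The 21 include the stalk proteins Rplp0, Rplp1 and Rplp2, and Rpsa, Rps4x, Rps6, Rps7 and Rps19 of the small subunit. Below 0 in all 14 hairpin pairs, with the Set1a+Set1b and Pnuts pairs included, were 5 of 73 genes, among them Rpl13 and Rpsa, against 1.77% of all genes. Rpsa shows the size: in polyA RNA it had 52.8 and 54.8 FPKM in the control and 36.7 and 40.3 with the hairpin. Pairs of the same set share no library here, but the 10 pairs all carry the same hairpin. Against the confidence bounds that the authors deposited with each value, the steps were small: in none of the 10 Wdr82 pairs were the bounds of control and hairpin apart for a ribosomal protein gene. For Rplp0 in untreated cells they ran from 14.1 to 209 FPKM in the control and from 11.6 to 136 with the hairpin. Of all genes, bounds were apart for 0.226%, 0.558%, 0.478% and 0.537% in the unstranded pairs in order of time, 2.04% and 2.67% in the stranded pairs, 0.313% and 0.322% without and with DRB, and 0.37% and 0.708% in polyA RNA.

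In the libraries labelled with hairpins against Set1a and Set1b the median gene was at log2 -0.09 without LPS and 0.06 with 45 min of it. In untreated cells 4 of 75 genes were 1.5-fold lower and 0 higher (6.78% and 8.16% of all genes), and after LPS 1 of 78 was lower and 6 higher (7.62% and 9.41%). The limma fit called 0 of 78 genes (0.0366% of all genes in each direction), with 2 lower at an unadjusted p under 0.05 and 0 higher (1458 and 1534 of all 13679 genes). Rps26, of the messenger RNA exit channel, had 115 and 66.9 FPKM in the control, untreated and with LPS, and 57.2 and 144 in the hairpin libraries, so the 2 pairs went opposite ways. In the libraries labelled Pnuts sh the median gene was at -0.13 in untreated cells and -0.22 after LPS, against 0.02 and 0.09 for all genes. There 4 of 76 and 5 of 78 genes were 1.5-fold lower (9.23% and 10.9% of all genes) and 1 and 2 were higher (10.7% and 17.9%). The limma fit called 0 of 79 (0.0363% of all genes were lower and 0.0509% higher), with 15 lower and 1 higher at an unadjusted p under 0.05 (1551 and 1953 of all 13762 genes). Rpsa had 47.7 and 54.2 FPKM in the control and 31.2 and 43.1 in the libraries labelled Pnuts sh, and Rpl10a had 121 and 98.6 against 85.3 and 65.5. The deposited bounds were apart for 0 ribosomal protein genes in both Set1a+Set1b pairs (0.816% and 1.34% of all genes) and in the untreated Pnuts pair (0.797%). In the Pnuts pair with LPS they were apart for 1 (1.55%), Rps28, which was listed at 0 in the control.

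Rps27a was called higher after 45 min of LPS in the unstranded set and in the Pnuts set. In the unstranded set it went from 32.2 to 83.3 FPKM in the control and from 20.9 to 63.0 with the Wdr82 hairpin (log2 1.45, SE 0.09, limma adjusted p 0.0031). In the Set1a+Set1b set it went from 36.3 to 122 FPKM in the control and from 44.1 to 109 in the hairpin libraries, and in the Pnuts set from 44.8 to 164 and from 41.0 to 160. Every library at 45 min was above every untreated library of its set, and in the Pnuts set Rps27a was the only ribosomal protein gene called (1.9% of all genes higher and 0.24% lower, log2 1.89, SE 0.10, limma adjusted p 0.0194). That call was lost without the filter on low values and without limma's trend. It was lower again at 2 h (50.4 and 36.6 FPKM) and 4 h (44.6 and 32.8), still above untreated cells. At 1 h in the stranded set the values were 101 and 129 FPKM in the control and 80.2 and 88.2 with the hairpin, which was not called. In polyA RNA at 4 h it had 5.74 and 8.28 FPKM in the control and 6.02 and 7.95 with the hairpin. Its locus (mm9 chromosome 11, 29445846 to 29478367, ENSMUSG00000020460) holds 3 genes of the table. Summed with its -ps row the change at 45 min in the unstranded set was log2 0.92 (limma adjusted p 0.0102).

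Rpl24, on the face of the large subunit toward the small one, went from 17.2 to 35.1 FPKM at 45 min in the control of the unstranded set and from 15.0 to 30.2 with the hairpin (log2 0.98, SE 0.12, limma adjusted p 0.0186). Rpl27a (log2 0.75) and Rpl21 (log2 0.62) were the other 2 called at 45 min, when 4 of 79 genes were higher and 0 lower (4.51% and 1.78% of all genes), a share of these genes close to that of all genes, and 2 were called without limma's trend. At 2 h, 19 of 79 were higher and 0 lower (15.8% and 8.23% of all genes), against 5 higher without the filter on low values and 8 without limma's trend. Rps2 had the widest change among them, from 13.2 to 34.6 FPKM in the control and from 12.3 to 17.1 with the hairpin (log2 0.89, SE 0.22, limma adjusted p 0.0436). Rps9 went from 164 to 247 FPKM and from 139 to 226. At 4 h, 12 were higher and 5 lower (26.8% and 14.9% of all genes), in all 10 without the filter on low values. Rps9 was then at 289 FPKM in the control and 226 with the hairpin (log2 0.75, SE 0.08, limma adjusted p 0.0024). Rps20 (log2 0.84), Rpl9 (1.01) and Rps24 (1.11) were also higher.

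Rpl10a and Rpl12 went the other way. Rpl10a had 92.5, 71.9, 61.2 and 30.6 FPKM in the control of the unstranded set, falling in the order of time, and 57.4 and 25.6 at the ends of the series with the hairpin (log2 -1.35 at 4 h, SE 0.19, limma adjusted p 0.0046). Rpl12 went from 57.3 to 20.9 FPKM in the control and from 35.5 to 18.7 with the hairpin (log2 -1.15, SE 0.21, limma adjusted p 0.0104). In polyA RNA at 4 h Rpl10a went from 10.8 to 6.02 and from 12.4 to 5.41 FPKM (log2 -0.91, SE 0.15, limma adjusted p 0.0244) and Rpl12 from 6.75 to 4.13 and from 6.77 to 3.53 (log2 -0.69, SE 0.14, limma adjusted p 0.0364). These values depend on the copies. Summed with the -ps rows, Rpl10a in 4sU RNA at 4 h was at log2 -0.48 (limma adjusted p 0.0509), and in polyA RNA it turned to 0.20, while Rpl12 stayed at -1.11 in 4sU RNA (limma adjusted p 0.0081) and was at -0.03 in polyA RNA. The other genes lower at 4 h in 4sU RNA were Rpl21, Rplp2 and Rpsa, by log2 -0.33, -0.30 and -0.34. Rplp2 turned to 0.45 when summed with its copy, and Rpsa was at -0.02.

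**Figure D3:**
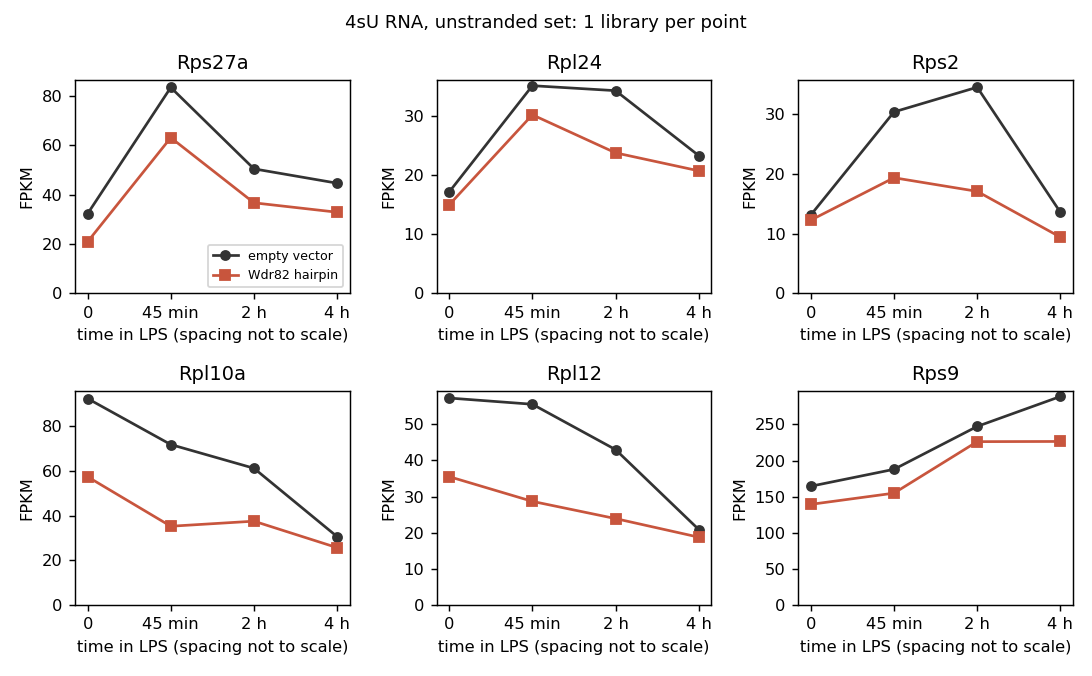
FPKM (vertical axis, from 0) of 6 ribosomal protein genes at each time in LPS (horizontal axis, spacing not to scale) in unstranded 4sU RNA, with 1 library per point for the empty vector (circles) and the Wdr82 hairpin (squares). Rps27a is highest at 45 min in both, Rpl10a and Rpl12 are lowest at 4 h, and Rps9 is higher at 2 h and 4 h than in untreated cells.

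In polyA RNA after 4 h of LPS, 7 of 75 genes were called higher and 3 lower (23.5% and 11.8% of all genes), and 0 without the filter on low values. The higher genes were Rpl6, Rpl11, Rpl27, Rps10, Rps14, Rps20 and Rps24. Rpl11 had 25.4 FPKM in untreated and 41.4 in treated control cells, and 19.0 and 32.8 with the hairpin (log2 0.72, SE 0.12, limma adjusted p 0.0245). Rps24 was higher in both kinds of RNA. Rpl38 was lower (26.9 and 16.2 FPKM in the control, 22.0 and 15.4 with the hairpin, log2 -0.59, limma adjusted p 0.0421), but turned to 0.43 when summed with its copies. The median gene was at 0.20 and 0.17, close to the medians of all genes, 0.17 and 0.13. At 1 h in the stranded set the median gene was at -0.18 in the control and -0.27 with the hairpin, against 0.05 and 0.00 for all genes, and 8 of 79 and 18 of 77 genes were 1.5-fold lower (9.96% and 11.2% of all genes). The limma fit called 0 of 79 genes at 1 h (0.838% of all genes were higher and 0.293% lower). At an unadjusted limma p under 0.05, 3 were higher and 18 lower (1519 and 1029 of all 14312 genes). In the Set1a+Set1b set the fit called 0 of 78 at 45 min (2.62% of all genes were higher and 0.797% lower). There 13 were higher and 3 lower at an unadjusted limma p under 0.05 (2431 and 1701 of all 13679 genes). Rps27a just missed with a limma adjusted p of 0.05005.

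With DRB ribosomal protein genes were called in both directions. In the limma fit over both hairpin states, 27 of 77 genes were higher and 14 lower with DRB (24.1% and 17.6% of all genes), so the lower genes were about as frequent as among all genes. The counts were 16 and 8 without limma's trend, and 0 genes passed without the filter on low values. The median of all genes rose by 0.16 in this comparison. Rpl10, which closes the peptidyl transferase centre late in assembly, had 133 FPKM in the control and 110 with the hairpin without DRB, and 30.9 and 12.9 with it (log2 -2.54, SE 0.25, limma adjusted p 0.0048). Rpl12 went from 41.8 to 8.38 FPKM in the control and from 22.2 to 3.27 with the hairpin (log2 -2.32, SE 0.17, limma adjusted p 0.0032). Rps2 went from 31.2 to 9.16 and from 23.2 to 3.75 (log2 -2.01, SE 0.23, limma adjusted p 0.0058). Rpl10a went from 71.6 to 21.2 and from 50.5 to 10.8 (log2 -1.92, SE 0.17, limma adjusted p 0.0042). Rpl21, Rpl23a, Rpl9, Rpl30, Rps29, Rpl35a, Rpl28, Rps10, Rpl23 and Rpl7l1 were also lower.

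Among the genes that were higher with DRB were several with much polyA signal. Rpl8 had 269 and 259 FPKM without and 558 and 534 with DRB, in the control and with the hairpin (log2 1.05, SE 0.13, limma adjusted p 0.0068). Rplp1 had 207 and 191 without and 438 and 403 with DRB (log2 1.08, SE 0.13, limma adjusted p 0.0064), and Rps15a 45.2 and 37.3 without and 96.8 and 94.9 with it (log2 1.20, SE 0.15, limma adjusted p 0.0066). Among genes above the median polyA level the median ratio was 0.82 in the control and 0.60 with the hairpin. Among genes at or below it the median was -0.21 and -0.91. Genes with -ps rows had a median of 0.12 in the control and -0.34 with the hairpin, and genes without them 0.65 and 0.37. Listed polyA levels of genes with copies are uncertain, and the part of the copies in the relation with polyA level was not tested. The rank correlation of the DRB ratio with the polyA level was 0.63 over 76 genes in the control and 0.70 over 77 with the hairpin, while over all 14045 genes the fitted DRB change had one of 0.10. FPKM are relative to each library, so a gene with less change than the rest of the library appears higher. The DRB libraries were also shallower, at 0.518 and 0.490 of the first control library.

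The -ps rows had median ratios of 0.87 and 0.77 with DRB. Rpl10a-ps1 went from 155 to 269 FPKM in the control and from 131 to 236 with the hairpin, opposite to Rpl10a. Summed with their copies, Rpl10a turned to log2 0.40, Rpl9 to 0.59, Rpl28 to 0.77 and Rps10 to 0.46. Rpl10, Rpl12 and Rps2 stayed lower, at -2.19, -1.86 and -1.57, and the calls became 35 higher and 9 lower. Rps27a went from 57.4 to 165 FPKM with DRB in the control but from 43.5 to 50.4 with the hairpin. That gives a log2 ratio of -1.69 for hairpin against control with DRB, against -0.39 without, and the difference between the 2 was not tested.

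**Figure D4:**
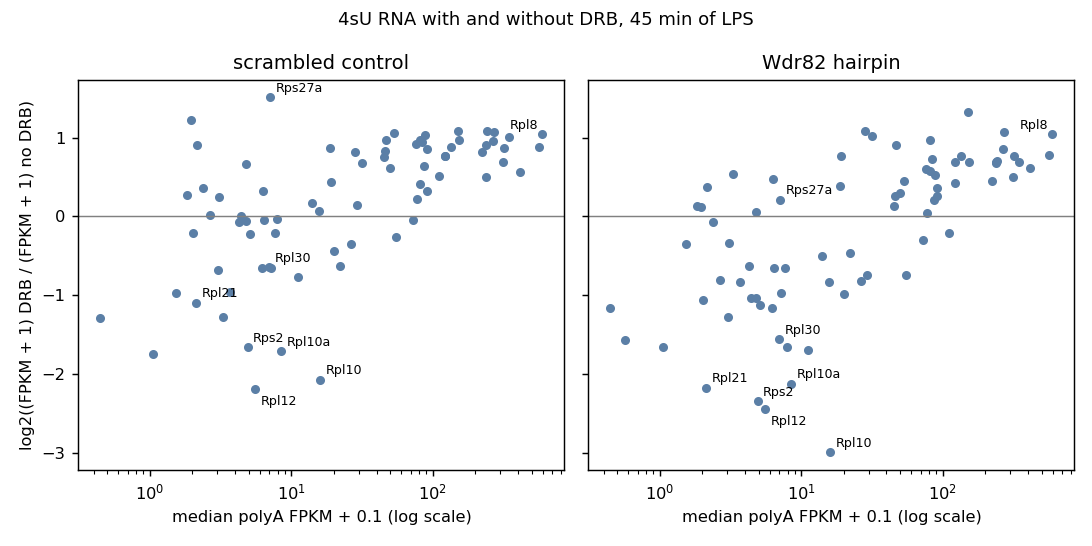
Log2 ratio of DRB to no DRB in 4sU RNA, after adding 1 FPKM (vertical axis), against the median polyA FPKM of the same gene plus 0.1 (horizontal axis, log scale), in the scrambled control (left) and with the Wdr82 hairpin (right). Rpl8, highest in polyA signal, lies at 1.05 and 1.04, while Rpl10, Rpl10a, Rpl12 and Rps2 lie below -1.5 in both panels.

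The 4 genes lowest with DRB (Rpl10, Rpl12, Rps2 and Rpl10a) were also far below 0 with the Wdr82 hairpin in the stranded set, which shares no library with the DRB set. The rank correlation between the fitted DRB change and the fitted hairpin change was 0.58 over 77 genes there, and 0.04 over all 13051 genes. In the unstranded set it was -0.04 over 77 genes, and in polyA RNA -0.41 over 75 genes. The polyA level went with the hairpin change in the stranded set too, with a rank correlation of 0.39 over 79 genes, against -0.04 in the unstranded set. Genes within a set share its libraries and their copies share reads, so these are descriptions of the sets. The hairpin change itself was only loosely ordered alike between sets, at 0.17 between unstranded and stranded over 78 genes, where all 13525 genes had 0.64.

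**Figure D5:**
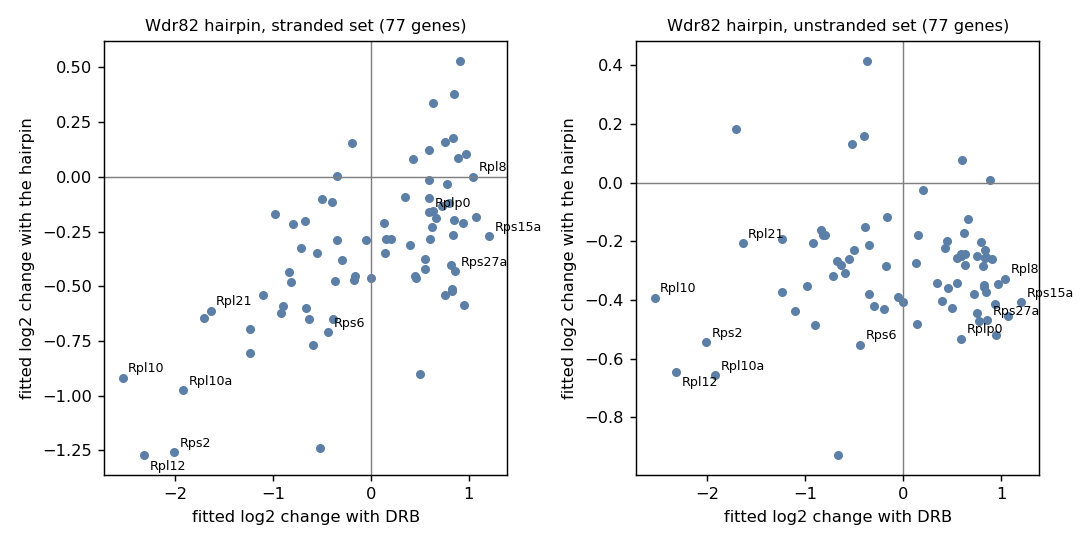
Fitted log2 change with the Wdr82 hairpin (vertical axes, scales differ) in the stranded set (left) and the unstranded set (right) against the fitted log2 change with DRB (horizontal axes) for 77 ribosomal protein genes in each panel. Rpl10, Rpl10a, Rpl12 and Rps2 lie at the left and below 0 in both panels, and the rank correlation is 0.58 in the left panel and -0.04 in the right.

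Other genes of the translation machinery were compared in the same fits. The lists were chosen with earlier results of these data known. With the Wdr82 hairpin in unstranded 4sU RNA, 6 of 7 genes listed for translation elongation were lower and 0 higher. In that fit 5.66% of all genes were lower and 5.28% higher. The median gene of the elongation list, which includes Eef1e1, was at log2 -0.48, against -0.29 for the ribosomal protein genes and 0.03 for all genes. Eef2, which translocates the ribosome, had 158, 218, 207 and 194 FPKM in the control and 116, 138, 156 and 138 with the hairpin (log2 -0.50, SE 0.07, limma adjusted p 0.0208). Of 29 ribosome biogenesis genes 10 were lower and 0 higher, among them Ncl (nucleolin, log2 -0.46, limma adjusted p 0.0246) and Nop56 (a box C/D snoRNP protein, log2 -0.83, limma adjusted p 0.031). Of 76 mitochondrial ribosomal protein genes 19 were lower and 0 higher, with a median of -0.27, close to that of the cytoplasmic ones. Of 18 initiation factor genes 5 were lower, and of 13 RNA polymerase I genes 2 were lower, Taf1d and Ubtf. Of 14 other genes listed for a 5′ terminal oligopyrimidine tract 3 were lower and 0 higher, with a smaller median of -0.15. Of 10 ribosomal protein chaperone genes 2 were lower and 0 higher, with a median of -0.26. Of 14 regulators of ribosomal protein genes 0 were called, and their median was -0.04. Myc, which activates ribosomal protein genes, had 58.8, 144, 44.9 and 56.0 FPKM in the control and 37.9, 89.0, 42.9 and 24.4 with the hairpin, below its control each time but not called. In the stranded set Myc was called lower (limma adjusted p 0.0399, where 1.07% of all genes were lower). It had 228 and 109 FPKM in the control there, untreated and at 1 h, and 105 and 55.1 with the hairpin.

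In polyA RNA the lists parted. The median ribosome biogenesis gene was at log2 0.28 with the hairpin in the fit and the median mitochondrial ribosomal protein gene at -0.10, while the ribosomal protein genes were at -0.36 and all genes at -0.07. None of these passed the test, since the polyA fit called 0 genes in all. At an unadjusted limma p under 0.05, 6 of 29 biogenesis genes were higher, as were 889 of all 12899 genes. Genes of the elongation list were at -0.18. Eef2 had 527 and 576 FPKM in the control, untreated and at 4 h, and 324 and 360 with the hairpin. After 4 h of LPS in 4sU RNA, 8 of 29 biogenesis genes were lower and 2 higher (14.9% and 26.8% of all genes). Their median was -0.29, while the ribosomal protein genes were at 0.22 and all genes at 0.14.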

How the data were processed

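RNA of 28 mouse macrophage libraries was analysed from 6 tables. Each table holds FPKM deposited by the authors, with a lower and an upper bound and a status per gene and library, per the file headers. The submitters' processing notes name TopHat 1.3.1, Cufflinks 2.1.1, Cuffdiff 2.1.1 and the mm9 build. The annotation, the scaling and the bounds' level were not given in the sources used here. Counts were not used here, so the absolute depth is unknown and no counting interval was computed.

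Groups and LPS times came from the sample titles. Ratios were log2((FPKM + 1)/(FPKM + 1)) within a table, for genes with status OK and at least 1 FPKM in either library, and counted at 1.5-fold in the 30 pairs without a test. This scale understates changes of low genes. limma 3.58.1 (R 4.3.3, with trend) was fitted to all genes of each table with hairpin and LPS or DRB as terms, with 3 residual degrees of freedom in the unstranded set and 1 in the others, and adjusted p under 0.05. With 1 library per condition, the p-values test each term against an error that is the departure from additivity, which may be technical. The fits were tested on simulated data with known changes. Changes of log2 0.5 were recovered for 91 of 100 genes in the unstranded set. In the sets of 4 libraries it was from 39 of 99 (Set1a+Set1b) to 49 of 98 (stranded), so 0 calls there say little about small steps. The simulated noise was independent between libraries, so real departures from additivity were not covered. All of the genes may be named; those given with values are those of the fixed list of roles and paralogs, the 4 highest and 4 lowest ratios per comparison at 10 FPKM or more, the highest levels, and genes with 1 sign throughout; called genes follow from the fits. The members and lists were chosen with earlier results of these data known. Promoter sequences are RefSeq's, build GRCm38.p6. Alternatives are given in the closing section.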

Additional observations from a re-analysis of the deposited data

Results flagged for a closer look

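Rpl30 lay below 0 with the Wdr82 hairpin in all 8 pairs of 4sU RNA and above 0 in both pairs of polyA RNA, and was picked out for these opposite signs. Its median log2 ratio was -0.46 (range -1.27 to -0.31) in 4sU RNA and 0.09 (0.08 and 0.10) in polyA RNA, a difference of 0.55. In polyA RNA its level was low, 6.17 and 7.08 FPKM in the control and 6.71 and 7.52 with the hairpin, and 9 -ps rows carry its name.

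After 4 h of LPS, 3 genes with at least 10 FPKM had opposite signs in the 2 pairs of 4sU RNA and the 2 pairs of polyA RNA. Rpl27a had a median of -0.15 in 4sU RNA and 0.19 in polyA RNA, a difference of 0.34. Rpsa had -0.34 and 0.09, a difference of 0.43. Rps26 had 0.36 and -0.17, a difference of -0.53. None of these 4 differences was tested, and the 2 kinds of RNA come from different tables.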

How the results depend on the processing

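Counts of calls moved with the settings. For the Wdr82 hairpin in the unstranded set, 14 genes were called, and 1 without a filter on low values, 3 without limma's trend, and 0 to 3 without 1 of the 4 pairs. Without the filter the calls at 45 min in the Pnuts set became 0 instead of 1, those at 2 h 5 instead of 19, those at 4 h 10 instead of 17, DRB 0 instead of 41, polyA LPS 0 instead of 10 and the stranded hairpin 0 instead of 2. Without trend the calls were 2 of 4 at 45 min, 8 of 19 at 2 h, 24 of 41 with DRB, 6 of 10 in polyA RNA with LPS, 0 of 2 for the stranded hairpin and 0 of 1 for LPS in the Pnuts set. With a pseudocount of 0.1 the stranded hairpin gave 5 calls, LPS in the Pnuts set 4 and in the Set1a+Set1b set 2. At 5 FPKM or more these were 5, 5 and 2. Centring on the median of all genes turned 3 medians, to -0.00705 (unstranded, 4 h of LPS, control), -0.00942 (Set1a+Set1b, 45 min, control) and -0.0486 (DRB with the hairpin).

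The median gene lay below the median of all genes in 13 of 14 hairpin pairs under every alternative run for the single pairs. For LPS it did so in 4 of 14 pairs, and in 2 without the filter or summed with the -ps rows. For DRB it did so in 1 of 2, and in 0 at 5 FPKM or more, without the filter or with the -ps rows. At 2-fold, 0 to 13 genes were lower per hairpin pair. Summing with the -ps rows reversed 8 calls: Rpl30 with the hairpin (0.12), Rpl28 (0.77), Rpl10a (0.40), Rpl9 (0.59) and Rps10 (0.46) with DRB, Rplp2 at 4 h (0.45), and Rpl10a (0.20) and Rpl38 (0.43) in polyA RNA. The share of a library's summed FPKM in these genes was 0.00598% in the median 4sU library and 0.772% in polyA RNA, since small RNA genes dominate the sums. The 4sU range was 0.00149% to 0.233%, with only the 4 libraries of the stranded Wdr82 set at 0.113% or more. Without mitochondrial, small RNA and unnamed genes the shares were 1.20% and 1.497%. The causes were not tested. No paired analysis was possible because the labels carry no replicate numbers and each condition has 1 library, but the fits compare control and hairpin within each time or treatment. The fits in sets of 4 libraries have 1 residual degree of freedom, and single genes with copies share reads.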
